A study of Mus musculus with 24 samples.

Results

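The data described here are the response of mouse primary chondrocytes to interleukin-1β (IL-1β) after 36 h when the cells grew without fibroblasts. The comparison took in 6 of the 24 libraries of the study, chosen by their labels alone: 3 from untreated cells (untreated 1 to 3) and 3 from cells given IL-1β at 10 ng/ml (treated 1 to 3). Both groups were wild-type chondrocytes isolated from cartilage by collagenase digestion, grown in serum-containing medium in the lower well of transwell plates. IL-1β was added 24 h after the cells had attached, and poly(A) RNA was taken 36 h after that. The other 18 libraries came from the same design at 72 h and from co-culture with dermal fibroblasts, and they enter below only where the response at 36 h in normal culture differed from the response there. The labels used here give no animal, sex, age or pooling for a library, so the p-values measure the spread between libraries, which may be technical.

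IL-1β binds a receptor made of IL1R1 and the accessory protein IL1RAP, and the adaptor MYD88 passes the signal to IRAK and TRAF6 proteins. They switch on the IKK complex, which frees NF-kB from its inhibitors, and the MAP kinases, which act on AP-1 factors. In cartilage the cytokine is known for inducing matrix-degrading enzymes, nitric oxide and prostaglandin E2 and for lowering the transcripts of type II collagen and aggrecan.

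Levels are FPKM, fragments scaled to transcript length and to the mapped fragments of the library, so they can be compared between genes per length. Changes are log2 differences, the mean log2(FPKM + 1) of the treated libraries minus that of the untreated ones, which understates the change of genes at low levels. A gene was called when the p-value of limma, adjusted by Benjamini-Hochberg over 12178 tested genes, was under 0.05. The libraries of a group were close to each other, with Pearson correlations of log2 values between 0.9966 and 0.9979 within the groups and between 0.9431 and 0.9463 across them. The FPKM of a library summed to between 438242 and 469939, and the 10 most abundant genes held 6.41 to 6.5% of that sum in untreated and 9.18 to 9.31% in treated libraries. The 3 treated and 3 untreated libraries did not overlap in 73% of the tested genes, and 67.5% were called, 25.9% higher and 41.5% lower. A call alone therefore says little, and changes of at least 2-fold were less common: 461 genes were called at that size in the higher direction (3.79%) and 478 in the lower direction (3.93%). The median log2 difference over all tested genes was -0.09, and the count of members of each gene list below should be read against these shares.

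**Figure D1:**
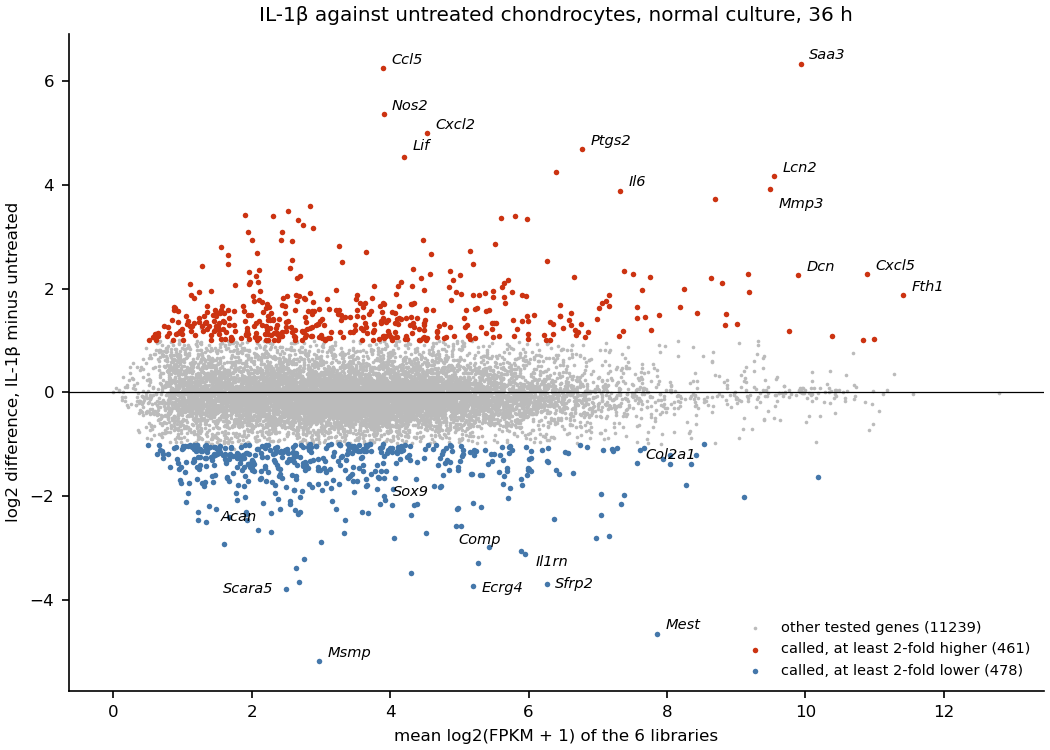
Log2 difference between treated and untreated libraries (vertical axis) against the mean log2(FPKM + 1) of the 6 libraries (horizontal axis) for 12178 tested genes, as 1 point per gene. Coloured points are the 461 genes called at least 2-fold higher and the 478 called at least 2-fold lower, and a selection of genes is named. Saa3 lies highest, at 6.34, and Msmp lowest, at -5.18.

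The label of the cells was checked against chondrocyte markers. Of the 10 tested markers, Col2a1, the chain of type II collagen, stood at 309, 289 and 309 FPKM in the untreated libraries, Col11a1 at 233, 235.6 and 240.3 and Comp at 170.5, 169.6 and 171. Acan, the aggrecan core protein, was low at 10.1, 9.42 and 10.1 FPKM, and Sox9, the main chondrocyte transcription factor, stood at 30.9, 29.3 and 30.7. The fibroblastic collagens were far more abundant: Col1a1 had 2489.5 ± 41.8 FPKM (SD, n = 3) and Col3a1 2162 ± 77.6. The cartilage genes Matn1, Chad, Snorc and Cytl1 were below the level needed for a test. The untreated libraries thus held type II collagen and COMP transcripts beside a much larger share of type I and type III collagen.

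Transcripts used as markers of other cell types were also present, in both groups. Summed over the 16 skeletal muscle markers with values, tested or not, the libraries held 290.4 to 327 FPKM without and 324 to 359.5 with IL-1β, with the myogenic factor Myog at 8.29 ± 0.0693 and 6.14 ± 0.576. The 16 macrophage and myeloid markers with values summed to 59.2 to 67.9 and 76.5 to 88.3 FPKM, and of the 13 tested, 5 were called higher and 5 lower. Most of this sum was lysozyme, Lyz2, at 42.6 ± 3.86 and 57.5 ± 3.91, while the macrophage receptors Csf1r and Adgre1 were under 1 FPKM in both groups on average. The fibroblast markers summed to 727 to 752 and 440.2 to 453 FPKM, most of it Ly6a. Of the 10 tested, 4 were called higher and 4 lower, with a median log2 difference of 0.09. Adipocyte markers summed to 135.8 to 146.8 FPKM without and 143.1 to 146.7 with IL-1β. Osteoblast and osteoclast markers summed to 104.2 to 110.6 and 85.7 to 97.1 FPKM, and neural and glial markers to 25.4 to 26.5 and 27.6 to 30.2. Endothelial markers summed to 5.84 to 6.26 and 6.15 to 7.39 FPKM, with 2 of 10 at 1 FPKM or more in any of the 6 libraries. Epithelial and keratinocyte markers summed to 3.8 to 4.09 and 2.46 to 3.37 FPKM, and blood cell markers to less than 1 FPKM in every library. A sum of marker transcripts does not by itself show that cells of that type were present. The part of any such cells in the changes below was not tested, and in whole cultures fewer cells of a type cannot be told apart from less RNA per cell.

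The receptor pathway itself changed on both sides. Il1r1, the signalling receptor, stood at 104, 107 and 105 FPKM in untreated and 55.3, 52.6 and 57.8 in treated libraries, so every treated library was lower (log2 difference -0.92 ± 0.06 SE, adjusted p = 6.43e-12). Il1rn encodes the secreted receptor antagonist, which blocks the receptor without signalling, and went from 191, 170.4 and 179.7 FPKM to 19.4, 20.6 and 19.9 (-3.11 ± 0.09, adjusted p = 8.79e-18). Both thus fell in every treated library. The accessory chain Il1rap rose (1.02), as did Il1rl1, the receptor for IL-33, from 77.0 ± 3.18 to 174 ± 11.1 FPKM. Il1a, an agonist ligand of the same receptor, was at 0.240, 0.1 and 0.120 FPKM without and 11.2, 10.4 and 12.2 with IL-1β. Among the signalling proteins, Irak2 (1.01) and Irak3 (0.92), of which IRAK3 restrains the pathway, rose, Myd88 fell (-0.62), and Traf6 did not pass the test (-0.12). In all, 9 of the 20 tested members of this list were called higher and 6 lower.

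Genes of the NF-kB feedback loop moved together. Of 17 tested subunits and inhibitors, 14 were called higher and 1 lower, beside the 25.9% and 41.5% of all tested genes. The inhibitors led: Zc3h12a, an RNase that degrades cytokine transcripts, had 11.7, 12.02 and 12 FPKM without and 64.1, 63.7 and 65.2 with IL-1β. Nfkbia, the inhibitor IκBα, had 31.1, 32.4 and 32.0 and 117, 120.5 and 117 (1.86 ± 0.05, adjusted p = 1.07e-18). Nfkbiz, a nuclear cofactor for genes such as Lcn2, rose by 1.93, and Tnfaip3, the deubiquitinase A20, by 1.25. The subunits themselves moved less: Nfkb1 by 0.44, Nfkb2 by 0.46, Relb by 0.35 and Rela by 0.21. The NF-kB list had a median log2 difference of 0.41.

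The CXC chemokines, some of which draw neutrophils, held some of the largest changes. Cxcl1 stood at 119, 109 and 109.7 FPKM in untreated and 1499, 1487 and 1551 in treated libraries, a 13.4-fold difference of the means. Cxcl2 went from 3.08, 3.09 and 3.09 to 129, 119.7 and 139.6 FPKM and Cxcl3 from 22.9, 15.5 and 17.1 to 364, 345 and 386. Their treated libraries lay far above the untreated ones with no overlap. Cxcl5 was already abundant without IL-1β, at 861 ± 57.7 FPKM, and reached 4159 ± 142 (2.27). Cxcl12, the homeostatic ligand of CXCR4, moved the other way, from 512, 535 and 514 FPKM to 222, 233 and 217 (-1.21, adjusted p = 2.90e-16), and Cxcl10, an interferon-induced chemokine, did not pass (1.69 ± 0.800 and 2.11 ± 0.624 FPKM). Of 11 tested members, 8 were called higher and 1 lower.

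Short stretches upstream of some of the genes that rose are shown because they hold the letters that NF-kB binds best. The sequences are RefSeq's on build GRCm38.p6, printed 5′ to 3′ on the gene's strand, all of them before the annotated transcription start. Capitals mark the motif, GGG and TTCC with any 3 bases between them, or its reverse complement, and overlapping matches are merged into a single capital run.

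Il6, chr5:30013055-30013094, plus strand: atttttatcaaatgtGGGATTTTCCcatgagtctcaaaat
Nfkbia, chr12:55492652-55492691, minus strand: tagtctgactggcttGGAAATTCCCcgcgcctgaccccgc
Cxcl1, chr5:90891141-90891199, plus strand: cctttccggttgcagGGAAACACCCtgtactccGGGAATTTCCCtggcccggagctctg
Cxcl2, chr5:90903787-90903845, plus strand: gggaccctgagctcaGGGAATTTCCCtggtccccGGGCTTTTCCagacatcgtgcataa
Cxcl3, chr5:90786013-90786075, plus strand: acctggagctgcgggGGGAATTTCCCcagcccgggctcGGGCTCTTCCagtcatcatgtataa

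The 3 neighbouring chemokine genes on chromosome 5 each held the run GGGAATTTCCC, with another match beside it. Searched on both strands in the 250 bases before the start, the motif was present in 62.5% of the promoter windows of the NF-kB list (10 of 16), in 44.4% for the CXC list (4 of 9) and in 33.3% for the CC chemokine and colony-stimulating factor list (4 of 12). It was present in 5.26% of the 12519 windows of all tested genes that had one, and in 7.43% of those of the genes called at least 2-fold higher (33 of 444). These lists hold textbook NF-kB targets, and a match is a description of the letters only: Saa3, Lcn2, Zc3h12a and Ptgs2 had none in their windows.

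Among the CC chemokines, which draw monocytes and T cells, Ccl2 and Ccl7 were abundant and Ccl5 changed most. Ccl5 was at 0.390, 0.890 and 0.890 FPKM in untreated and 133, 135 and 118 in treated libraries. Ccl2 stood at 262 ± 17.3 and 1277 ± 94.2 FPKM (2.28), Ccl7 at 271.7 ± 2.20 and 778 ± 38.7 (1.51), and Ccl20 at 3.56 ± 0.317 and 14.9 ± 0.802 (1.80). The macrophage growth factor Csf1 rose from 114 ± 1.89 to 312 ± 1.04 FPKM and the granulocyte factor Csf3 from 1.04 ± 0.125 to 7.98 ± 1.86. Of 15 tested members, 11 were called higher, and Ccl9 alone was called lower (-0.57).

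The interleukin-6 family rose at the level of its ligands and fell at the level of its shared receptor. Il6 stood at 37.7, 43.6 and 41.0 FPKM in untreated and 574, 566 and 721 in treated libraries (3.89 ± 0.10, adjusted p = 9.55e-19). Lif, which acts through the same signalling chain, went from 2.75, 3.10 and 2.60 to 85.9, 85.4 and 93.0 FPKM, and Il11 from 1.03, 1.15 and 1.01 to 26.7, 19.1 and 27.2. All treated values of these 3 ligands lay above all untreated ones. Il6st, the common receptor chain gp130, had 276, 307 and 305 FPKM without and 156, 139 and 157 with IL-1β (-0.97, adjusted p = 1.94e-09), and Lifr also fell (-1.003). Stat3 (-0.44) and Socs3 (-0.49), the transducer and the feedback inhibitor of these receptors, fell as well, while Osmr did not pass (0.12).

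TNF receptors and ligands were mostly called higher, 11 of 17 against 4 lower. The largest change was in Tnfrsf9, a costimulatory receptor, at 0.950, 1.06 and 0.610 FPKM without and 15.4, 14.7 and 14.4 with IL-1β. Tnfsf11, the osteoclast factor RANKL, went from 30.7 ± 0.997 to 57.8 ± 3.20 FPKM (0.89), and its decoy receptor Tnfrsf11b from 14.3 ± 0.762 to 11.3 ± 0.412 (-0.31). The ligand thus rose and the decoy fell slightly.

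Acute phase proteins gave the highest level reached by any of the induced genes named here. Saa3, a serum amyloid A made outside the liver, stood at 115, 111 and 96.8 FPKM in untreated and 8891, 8660.0 and 8782 in treated libraries, a 81.5-fold difference (6.34 ± 0.18, adjusted p = 6.71e-18). Lcn2, a siderophore-binding lipocalin, went from 191, 164 and 170.2 to 3006, 3225 and 3266 FPKM (4.17 ± 0.12, adjusted p = 4.82e-18). The treated libraries of both genes lay within a narrow range, far above the untreated ones. Haptoglobin, Hp, rose from 81.5 ± 3.86 to 398 ± 6.93 FPKM and ceruloplasmin, Cp, from 9.81 ± 0.311 to 51.5 ± 3.53. Not all of the group rose: Serpina3n, a protease inhibitor, fell from 109, 106 and 99.4 to 25.2, 24.1 and 24.4 FPKM (-2.05), and the long pentraxin Ptx3 did not pass (768 ± 21.9 and 742 ± 33.8 FPKM). The related Saa1 and Saa2 stayed under 3 FPKM, and their near-identical sequences make their separate values uncertain.

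**Figure D2:**
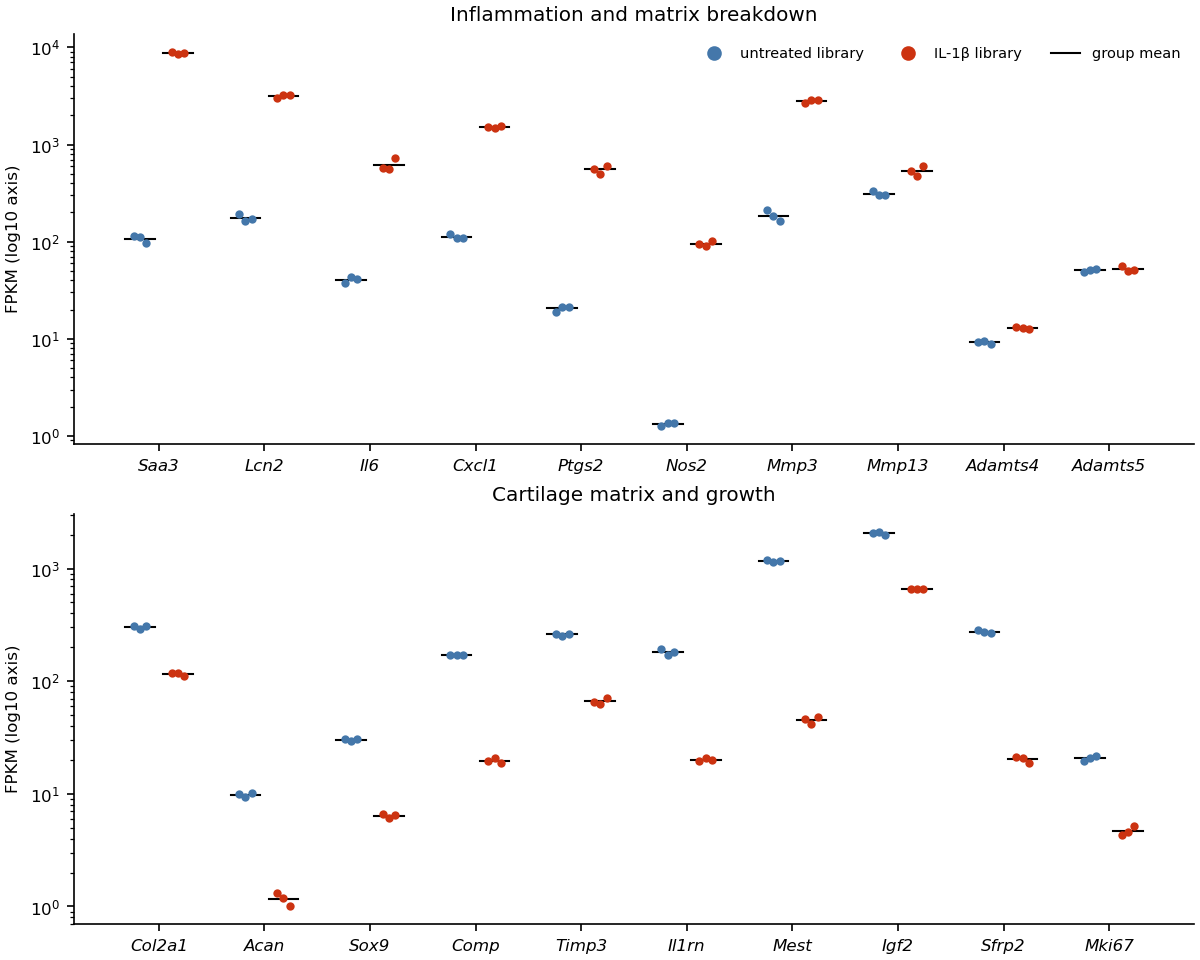
FPKM of 20 genes in each of the 3 untreated and 3 treated libraries, on a log10 axis, with 1 point per library and a bar at the mean of a group. The upper 10 are genes of inflammation and matrix breakdown and the lower 10 are genes of cartilage matrix and growth. Adamts5 is the gene whose groups overlap, and Sox9, Acan and Comp have every treated library below every untreated one.

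The prostaglandin route was raised at each step from arachidonic acid to prostaglandin E2. Pla2g4a, the phospholipase that releases arachidonic acid, stood at 44.7, 45.9 and 46.3 FPKM without and 211, 210.3 and 227 with IL-1β. Ptgs2, the inducible cyclooxygenase, went from 19.03, 21.4 and 21.2 to 559.6, 499 and 605 FPKM (4.68 ± 0.16, adjusted p = 1.21e-16). Ptges, the inducible terminal synthase, went from 23.7, 23.3 and 22.7 to 94.3, 98.1 and 102. The treated libraries were higher in all 3 enzymes without overlap. The exporter Abcc4 (1.57) and the importer Slco2a1 (1.05) rose, while the constitutive cytosolic synthase Ptges3 (-0.42) and the receptor Ptger4 (-0.34) fell.

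Genes of nitric oxide synthesis rose as well. Nos2, the inducible synthase, stood at 1.28, 1.37 and 1.37 FPKM in untreated and 94.4, 89.3 and 102 in treated libraries (5.36 ± 0.12, adjusted p = 6.01e-20). Ass1, which recycles citrulline to arginine, went from 19.2, 17.9 and 19.6 to 189, 204 and 210.1 FPKM, and the inducible arginine transporter Slc7a2 from 21.2, 21.6 and 22.3 to 89.6, 78.9 and 94.7. Gch1, the first enzyme for the cofactor tetrahydrobiopterin, rose by 1.13. The basal arginine transporter Slc7a1 fell, from 12.6 ± 0.319 to 5.79 ± 0.389 FPKM. Of 11 tested members, 8 were called higher and 2 lower.

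Complement components split evenly, 7 called higher and 7 lower of 17. C3, the central component, rose from 31.7, 32.3 and 29.3 FPKM to 186, 185 and 185 (2.54), and C4b, another component of the cascade, fell from 25.1, 26.7 and 25.6 to 4.02, 4.34 and 4.93 (-2.31). The 3 chains of C1q, a product of macrophages in most tissues, were at 1.46 to 2.41 FPKM without IL-1β and fell, C1qa by a log2 difference of -0.65, C1qb of -1.13 and C1qc of -1.06, as did the macrophage mannose receptor Mrc1 (-0.84). Other myeloid markers rose, among them the lipopolysaccharide co-receptor Cd14 (1.42), Cd68 (0.72), Lyz2 (0.43) and S100a8 (1.95).

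Few interferon-stimulated genes were called. Of 25 tested, 5 were called higher and 3 lower, and the remaining 17 did not pass, where 67.5% of all tested genes were called. Ifit1 had 3.28, 3.79 and 1.86 FPKM without and 1.17, 2.69 and 2.54 with IL-1β, which overlap, and the level of Isg15 was 9.04 ± 3.09 and 6.18 ± 1.92 (adjusted p = 0.0685, 0.0259 without untreated 1, 0.02 without treated 2, 0.0389 with TPM rescaling, and with the replicate block 0.0312 over all libraries and 5.98e-05 within the 6). Irf1 was at 12.8 ± 0.741 and 13.1 ± 0.155 FPKM. The counts were 2 higher and 5 lower with TPM rescaling, 3 higher without untreated 1 or untreated 3, and 3 higher and 6 lower without treated 2, and the lower count was 6 with the replicate block within the 6 libraries. Of 16 tested genes of MHC class I and peptide loading, 6 were called higher and 2 lower, and 8 did not pass. B2m (0.60), H2-K1 (0.73) and the peptide transporter Tap1 (0.78) rose, Tap1 by the most in the list. The sequence similarity of the H2 genes limits how far their values can be told apart.

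Of the transcription factors downstream of stress and MAP kinase signals, Fosl1 rose from 13.8 ± 1.04 to 33.3 ± 4.09 FPKM, Fosl2 by 0.74 and Cebpb, a C/EBP factor of the acute phase response, by 0.71. Fos itself fell (-0.39), and Jun (0.03) did not pass. Klf2, which restrains NF-kB in endothelial cells, fell from 18.7, 19 and 17.8 to 6.15, 5.56 and 6.54 FPKM. The ERK feedback genes were called higher in 11 of 15, led by Ier3 at 58.2 ± 5.23 and 155 ± 15.4 FPKM, with Dusp1 (0.57) and Dusp6 (0.54) among them and Spry2 (-0.63) and Dusp5 (-0.75) in the other direction.

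Proteases of the matrix changed unevenly. Mmp3, stromelysin, which cleaves aggrecan and activates other metalloproteinases, stood at 211, 184 and 162 FPKM in untreated and 2695, 2848 and 2865 in treated libraries (3.92 ± 0.15, adjusted p = 7.00e-16). Mmp13, the main collagenase of cartilage in mice, had 329, 301 and 301 FPKM without and 533, 471 and 604 with IL-1β (0.78 ± 0.14, adjusted p = 3.63e-05). Mmp3 thus rose 15.1-fold and Mmp13 1.73-fold on the FPKM scale. The gelatinase Mmp9 went from 0.870, 0.400 and 0.380 to 13.8, 16.1 and 15.4 FPKM, Mmp12 from 2.62 ± 0.350 to 11.7 ± 0.388, and the constitutive gelatinase Mmp2 from 287 ± 2.33 to 467 ± 13.4. Mmp14, the membrane-bound activator of pro-MMP2, did not pass (-0.08, adjusted p = 0.0957, but 0.0392 without treated 2 and 0.00331 with TPM rescaling), and Mmp11 fell (-0.49). In all, 8 of 15 tested metalloproteinases were called higher and 3 lower, or 7 lower with TPM rescaling.

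The promoters of the stromelysin and the collagenase are shown because each held a single AP-1 motif, TGANTCA, in the 250 bases before its start, close to it. Capitals mark the motif, which reads the same on both strands.

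Mmp3, chr9:7445761-7445797, plus strand: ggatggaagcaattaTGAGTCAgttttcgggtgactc
Mmp13, chr9:7272464-7272500, plus strand: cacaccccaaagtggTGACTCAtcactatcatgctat

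The motif was present in 4.57% of the windows of all tested genes. The 2 neighbours on chromosome 9 thus share the motif at about the same distance from their starts, beginning at positions -46 and -35, while their changes differed.

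The aggrecanases, by contrast, moved little. Adamts5, the main aggrecanase of mouse cartilage, was at 48.2, 51.7 and 52.1 FPKM without and 56.5, 50.3 and 51.6 with IL-1β, with overlapping libraries (0.06 ± 0.07, adjusted p = 0.474). Adamts4, the second aggrecanase, was at 9.30, 9.56 and 8.77 and 13.1, 12.8 and 12.7 FPKM (0.44 ± 0.05, adjusted p = 1.80e-07). Adamts7, which cleaves COMP, changed most, from 3.06 ± 0.0896 to 12.6 ± 0.384 FPKM. Adamts2, the procollagen N-proteinase (-0.89), and Adamts1 (-0.92) fell.

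Inhibitors of these proteases split by member. Timp3, the matrix-bound inhibitor of metalloproteinases and aggrecanases, fell from 262, 253 and 263 FPKM to 65.5, 62.5 and 70.2 (-1.96 ± 0.08, adjusted p = 5.03e-15). Timp1, the secreted inducible inhibitor, rose from 459, 459 and 440.4 to 875, 934 and 889 (0.99), and Timp2 fell (-0.60). The serpin Serpine2 rose from 326 ± 23.3 to 813 ± 13.6 FPKM, while urokinase itself, Plau, was at 35.2 ± 0.641 and 40.2 ± 2.26 and its receptor Plaur rose by 0.89. Among the cathepsins, Ctsh rose (1.03) and Ctsk, the collagen-degrading cathepsin, fell (-0.54).

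Most chains of cartilage collagen fell. Of the 7 tested chains of the cartilage collagen fibril, 6 were called lower and 0 higher, and the remaining chain, Col9a3, did not pass (1.89 ± 0.272 and 1.61 ± 0.269 FPKM). Col2a1 went from 309, 289 and 309 FPKM to 118, 119 and 112 (-1.37 ± 0.05, adjusted p = 5.49e-16). Col9a1, which decorates the fibril, went from 15.3, 13.8 and 14.4 to 2.98, 3.54 and 3.09, and Col11a1, which sits in its core, from 233, 235.6 and 240.3 to 157, 148 and 146. The treated libraries of these 3 chains lay below all untreated ones, by the largest factor in Col9a1 and the smallest in Col11a1.

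Acan fell by more on this scale than any of these chains, from 10.1, 9.42 and 10.1 FPKM to 1.33, 1.18 and 1.02 (-2.32 ± 0.12, adjusted p = 2.83e-13). Comp, the pentameric protein that binds collagen fibrils, fell from 170.5, 169.6 and 171 to 19.6, 20.7 and 18.6, and Cnmd, chondromodulin, an inhibitor of vessel growth, from 21.4, 21.0 and 23.4 to 0.750, 0.870 and 0.840. Each of these was left with between 0.82 and 19.6 FPKM on average. Ucma, a secreted cartilage protein, was at 5.04, 4.63 and 3.92 FPKM in the untreated libraries and listed at 0 in all 3 treated ones. Scrg1 (-3.21), Matn4 (-2.31) and Cilp (-2.26) also fell to under 2 FPKM, whereas Hapln1, the link protein that ties aggrecan to hyaluronan, changed little (16.6 ± 0.603 and 12.4 ± 0.549 FPKM, -0.40). The exceptions in the list of 19 were 4 called higher, among them the chondroitin sulfotransferase Chst11, at 8.89 ± 0.319 and 27.7 ± 1.39 FPKM, and Epyc, epiphycan (0.93). The other 14 called members were lower.

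Sox9, which drives Col2a1 and Acan, stood at 30.9, 29.3 and 30.7 FPKM in untreated and 6.59, 6.09 and 6.52 in treated libraries (-2.08 ± 0.09, adjusted p = 4.25e-15), with no overlap. Its partner Sox6 fell as well (3.41 ± 0.136 to 1.30 ± 0.0551 FPKM), and the other partner, Sox5, was at 5.96 ± 0.237 and 7.23 ± 1.06. Other limb and joint factors fell: Barx1 (-1.22), Pitx1 (-1.07), Trps1 (-0.70) and Twist1 (-0.65). The osteogenic factor Runx2 did not pass (10.4 ± 0.533 and 10.1 ± 0.984 FPKM), and the mesenchymal factor Prrx1 rose from 103 ± 3.83 to 182 ± 7.12. Of 23 skeletal transcription factors, 6 were called higher and 15 lower.

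Small leucine-rich proteoglycans, which coat collagen fibrils, diverged. Dcn, decorin, rose from 428, 441 and 434 to 2054, 2102 and 2108 FPKM, and Lum, lumican, from 462 ± 6.86 to 868 ± 29.8. Ogn, osteoglycin, fell from 284, 302 and 310.3 to 56.2, 59.5 and 55.5, and Aspn (-1.47), Omd (-2.65) and Fmod, fibromodulin (-1.02), fell with it. Decorin and biglycan, Bgn (2192 ± 46.0 to 2803 ± 37.0 FPKM), were thus the abundant members of the family after treatment.

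Genes of the joint surface and of mineralization also went in both directions. Prg4, lubricin, rose from 32.8, 28.1 and 30.2 to 115, 108 and 118 FPKM (1.88 ± 0.05, adjusted p = 1.34e-18). Cemip, a hyaluronan-degrading protein, rose from 8.33, 8.90 and 8.51 to 61.5, 57.5 and 59.8, and the hyaluronan synthase Has2 fell from 48.4, 49.9 and 51.5 to 18.9, 17.3 and 22.3. Clu, clusterin, fell from 48.5 ± 2.78 to 13.2 ± 0.240 FPKM, and the joint transcription factor Erg (-1.04) fell too. Of the mineralization genes, Mgp, the matrix Gla protein that inhibits calcification, fell from 593, 569 and 561 to 166, 176 and 156 FPKM, Alpl, alkaline phosphatase, rose from 5.61 ± 0.422 to 18.9 ± 0.972, and Spp1, osteopontin, from 919 ± 59.1 to 1954 ± 141. Col10a1, the marker of hypertrophic chondrocytes, was at 1.53 ± 0.207 and 2.26 ± 0.248 FPKM.

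**Figure D3:**
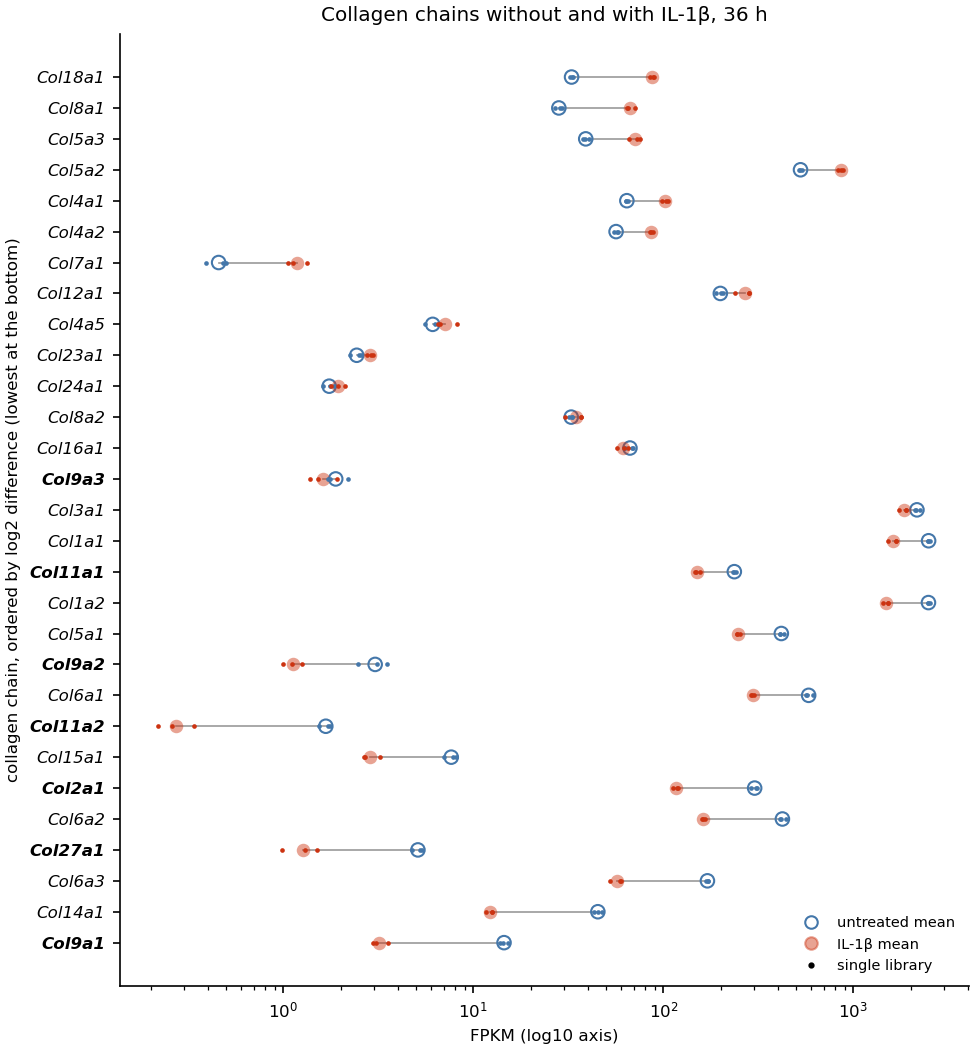
Mean FPKM of 29 tested collagen chains in untreated (open circles) and treated (filled circles) libraries on a log10 axis, ordered by log2 difference, with the 3 libraries of each group as small points. The 7 chains of the cartilage fibril are in bold. Col18a1 and Col8a1 rose most, Col9a1 and Col14a1 fell most, and 16 of the 29 were called lower against 9 higher.

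Outside the cartilage fibril, collagens fell in 10 and rose in 9 of 22 tested chains. The major interstitial chains Col1a1 (from 2458, 2537 and 2474 to 1669, 1671 and 1528 FPKM) and Col1a2 (-0.73) fell less than Col2a1. The pericellular type VI chains fell together: Col6a1 (-0.98), Col6a2 (-1.38) and Col6a3 (-1.56). Col18a1, the source of endostatin, rose from 32.9 ± 0.663 to 87.7 ± 2.47 FPKM, and the basement membrane chains Col4a1 (0.66) and Col4a2 (0.60) rose together. Among the enzymes that process collagen, the cross-linking oxidases Lox (1284 ± 40.9 to 2598 ± 51.2 FPKM) and Loxl2 (1.08) rose and Loxl4 fell (-1.58), while 16 of 24 genes were called lower, among them the collagen chaperone Serpinh1 (-0.56), the prolyl hydroxylase subunit P4hb (-0.50) and the procollagen processing enhancer Pcolce (-0.87).

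In the elastic fibre and matricellular list, Tnc, tenascin-C, rose from 105, 107 and 109 to 331, 319 and 355 FPKM and Ccn2, connective tissue growth factor, from 137, 141 and 139 to 387, 423 and 375. Another CCN protein, Ccn3, fell from 66.0, 64.6 and 64.5 to 4.70, 5 and 4.91 FPKM, and elastin, Eln, from 14.8, 13.6 and 12.3 to 2.06, 1.90 and 1.79. Members of a single family thus went opposite ways. The list as a whole had 10 called higher and 14 lower of 30, with Fn1, fibronectin, at 1572 ± 64.7 and 1200.5 ± 60.2 FPKM (-0.39).

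Genes of the TGF-β family went in both directions, 18 of 30 tested called higher and 8 lower. Grem1, which binds BMPs, went from 63.8, 78.7 and 78.0 to 389.5, 325 and 412 FPKM. Inhba, the activin A subunit, went from 15.03, 16.7 and 16.4 to 127, 113 and 129, and its binding proteins Fst (1.02) and Fstl3 (1.43) rose with it. Gdf15 rose from 1.497 ± 0.188 to 13.6 ± 1.16 FPKM. On the other side, Bmp4 (-1.15), Gdf10 (-2.35), the BMP antagonist Chrdl1 (-1.82) and the receptor Tgfbr2 (-1.12) fell. Id1 (21.9 ± 0.954 and 21.9 ± 0.520 FPKM) and Id2, which are BMP targets, were among the 4 of 30 tested members that did not pass the test.

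Of 25 tested members of the WNT list, 6 were called higher and 15 lower. Sfrp2 and Sfrp1, secreted WNT antagonists of the SFRP family, fell. Sfrp2 went from 287, 271 and 269 FPKM to 21.2, 20.7 and 18.9 (-3.70 ± 0.10, adjusted p = 1.07e-18) and Sfrp1 from 104, 116 and 107 to 35.4, 37.9 and 33.1. Frzb, a related antagonist in cartilage, fell by less (-0.59), and Dkk2, an antagonist of another family, rose (1.93 ± 0.210 to 9.24 ± 0.294 FPKM). The receptors Fzd8 (-1.08) and Fzd2 (-0.87) fell with them, as did Wnt16 (-1.38), a WNT of the joint. The WNT-responsive genes were mixed, Nkd2 (1.21) and Notum (0.84) higher and Nkd1 (-0.93) and Lef1 (-0.36) lower.

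The insulin-like growth factor axis and the imprinted growth genes had a median log2 difference of -1.19, with 10 of 18 members at least 2-fold lower. Mest, a paternally expressed gene of growing mesenchyme, stood at 1188, 1131 and 1173 FPKM in untreated and 46.5, 41.5 and 48.0 in treated libraries (-4.65 ± 0.14, adjusted p = 1.28e-17). Igf2, the fetal growth factor, had 2075, 2092 and 1988 and 663, 658 and 653 FPKM. Both were among the abundant transcripts of the untreated cells, and Mest lost nearly all of its level. The imprinted genes Peg3 (-2.23), Plagl1 (-1.57), Zim1 (-1.78) and Grb10 (-1.12) fell, and so did Cdkn1c, an imprinted cyclin-dependent kinase inhibitor, from 74.8, 78.0 and 70.7 to 12.4, 12.5 and 10.1 FPKM. Of the IGF-binding proteins, Igfbp3 (-2.22), Igfbp4 (-0.79) and Igfbp5 (-2.44) fell and Igfbp7 rose from 297 ± 1.06 to 1139 ± 48.7 FPKM. Igf1 itself fell (-1.26), and its receptor Igf1r rose slightly (0.31).

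In the list of growth factors that act on nerves, vessels and epithelium, which also holds 7 of their receptors, 18 of 32 tested genes were called higher and 8 lower. Vegfa went from 74.5, 82.7 and 74.9 to 218, 197 and 205 FPKM, Fgf7 from 101, 98.7 and 101 to 390.4, 397 and 398 and the EGF receptor ligand Ereg from 7.52 ± 0.0808 to 34.4 ± 4.84. Fgf2, Fgf9, Fgf10, Pdgfa and Vegfc rose, by 1.03 in Fgf2 to 1.61 in Fgf10. The receptors Fgfr2 (-0.94), Fgfr1 (-0.40) and Pdgfra (-0.67) fell.

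Every tested gene of DNA replication and of mitosis was called lower: 38 of 38 and 38 of 38, against 41.5% of all tested genes. Of these, 23 and 31 were at least 2-fold lower, and the medians were -1.21 and -1.30. Mki67, the proliferation antigen, stood at 19.6, 20.8 and 21.7 FPKM in untreated and 4.33, 4.59 and 5.16 in treated libraries. Mcm6, a subunit of the replicative helicase, had 32.9, 34.1 and 34.2 and 6.4, 7.12 and 6.5 FPKM, and the other subunits Mcm2, Mcm3, Mcm4, Mcm5 and Mcm7 had log2 differences from -2.26 to -1.65. Tk1, thymidine kinase, fell most of the replication list (-2.32), and Ccna2, cyclin A, went from 26.5, 24.7 and 26.4 to 5.94, 6.81 and 6.39 FPKM. The smallest change was in E2f1 (-0.16, adjusted p = 0.0317), whose call was lost without untreated 1 (adjusted p = 0.111), untreated 3 (0.0692), treated 1 (0.0831) or treated 3 (0.106) and with median-of-ratios scaling (0.218). Leaving out 1 library at a time, 36 to 38 replication genes and all 38 mitosis genes were called lower. The ribonucleotide reductase subunit Rrm2 went from 44.2 ± 2.01 to 34.4 ± 1.49 FPKM (-0.35).

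Promoter stretches of 4 of these genes are shown with letters known from cell cycle promoters. For 2 helicase subunits these are the E2F letters, TTTNNCGC or its reverse complement. For 2 mitotic genes they are TTTGAA, the letters of the cell cycle homology region. A match is a description of the letters only, and binding was not tested.

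Mcm5, chr8:75109341-75109382, plus strand: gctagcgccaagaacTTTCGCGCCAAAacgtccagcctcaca
Mcm6, chr1:128359730-128359830, minus strand: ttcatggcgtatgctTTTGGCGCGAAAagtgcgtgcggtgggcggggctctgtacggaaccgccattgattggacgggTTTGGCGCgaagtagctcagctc
Ccnb2, chr9:70421701-70421736, minus strand: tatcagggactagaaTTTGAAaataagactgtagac
Cdc20, chr4:118437344-118437376, minus strand: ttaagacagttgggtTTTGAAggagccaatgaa

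On either strand of the 250 bases before the start, the E2F letters were present in 29.4% of the windows of the replication list (10 of 34) and 6.93% of all, and the cell cycle homology letters in 38.2% of the windows of the mitosis list (13 of 34) and 10.8% of all. Cdc20, the activator of the anaphase-promoting complex, had a log2 difference of -1.65 and Ccnb2, cyclin B2, of -1.36.

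Of 21 tested G1 cyclins, their kinases and inhibitors and related factors, 12 were called lower, 3 higher, and 6 did not pass. Cdkn1a, the inhibitor p21, rose from 108, 92.1 and 99.5 FPKM to 463, 466 and 468 (2.21 ± 0.08, adjusted p = 2.04e-16). Ccnd1, cyclin D1, did not pass (43.4 ± 3.10 and 45.5 ± 4.05 FPKM), Cdk4 fell from 199 ± 9.71 to 115 ± 2.53, Myc fell (-0.83), and the retinoblastoma gene Rb1 rose by 1.06. Cdkn1a belongs to the p53 target list, of which 22 of 26 tested members were called higher and 15 at least 2-fold. Ccng1, cyclin G1, rose from 76.9, 69.9 and 76.2 to 268, 268 and 286 FPKM and Mdm2, the ubiquitin ligase of p53, from 24.3, 23.2 and 23.9 to 74.4, 67.2 and 79.5. Eda2r (1.88), Btg2 (1.78), the cell death genes Pmaip1 (1.68) and Bax (1.06) and the repair polymerase Polk (1.24) followed, while Sesn1 (-0.46), Sesn2 (-0.28) and Plk2 (-0.34) fell.

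Antioxidant genes of the NRF2 program rose in 26 of 30 tested members, 16 of them at least 2-fold, and Keap1, the NRF2 inhibitor, was the single member called lower (-0.25). Nqo1, a quinone reductase, went from 15.9, 16.2 and 16.2 to 177, 179 and 184 FPKM. Hmox1, which breaks down heme, went from 75.3, 74.7 and 73.7 to 259, 251.3 and 259.7, and Gclm, the modifier subunit of glutathione synthesis, from 23.3, 22.4 and 24.1 to 72.0, 70.7 and 71.5. All 3 were higher in every treated library. Srxn1 (1.6), Txnrd1 (1.38), the cystine importer Slc7a11 (1.76) and the mitochondrial superoxide dismutase Sod2 (1.49), which is also an NF-kB target, rose too. Sod1 (0.04) and Gpx4 (0.04) did not pass. Of the glutathione S-transferases, 16 of 22 were called higher, led by Gsta4 at 13.4 ± 1.61 and 57.8 ± 2.53 FPKM, and close paralogs in this family limit how far single members can be told apart.

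Of 17 tested genes of iron handling, 9 were called higher and 7 lower. Fth1, the ferritin heavy chain, went from 1513, 1314 and 1457 to 5142, 5461 and 5079 FPKM and Ftl1, the light chain, from 1419.6 ± 37.8 to 2892 ± 107. The ferritin receptor Scara5 fell from 20.04, 21.1 and 19.02 to 0.520, 0.480 and 0.530 FPKM and the ferric reductase Steap3 from 56.1, 58.3 and 58.7 to 8.12, 8.04 and 7.51. The transferrin receptor Tfrc rose by 0.61, and the iron exporter Slc40a1, ferroportin, fell (-0.66). The metallothioneins Mt1 (0.70) and Mt2 (0.95) rose.

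Serine synthesis and the other targets of ATF4, the factor of the amino acid response, fell almost throughout. Of 28 tested members, 25 were called lower, 14 of them at least 2-fold, and 2 higher, Slc7a11 and Stc2. The call of Stc2 (0.18, adjusted p = 0.0343) was lost without untreated 1 (adjusted p = 0.17), untreated 3 (0.0693), treated 1 (0.0959) or treated 3 (0.106) and with TPM rescaling (0.197). Atf4 had 231, 208 and 204 FPKM without and 93.2, 103 and 104 with IL-1β. Phgdh, the first enzyme of serine synthesis, went from 99.9, 97.8 and 102 to 25.1, 28.9 and 27.7, and Psat1, the next, from 106, 103 and 109 to 33.4, 38.5 and 39.6. The 3 genes fell in every treated library. Trib3 (-2.80), the leucine transporter Slc7a5 (-2.36), Chac1 (-2.10), asparagine synthetase, Asns (-1.32), and Ddit3, the stress factor CHOP (-1.60), were lower as well, and so were the mitochondrial folate enzymes Shmt2 (-1.59) and Mthfd2 (-1.60).

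The aminoacyl-tRNA synthetases, many of which are ATF4 targets, fell in 19 of 20, with a median of -0.82. Aars, which charges alanine, fell from 111, 110.4 and 109 to 34.0, 38.1 and 41.2 FPKM, and Qars, which charges glutamine, did not pass (42.7 ± 0.685 and 42.5 ± 1.28). Of 23 endoplasmic reticulum chaperones and sensors, 15 were called lower (9 with median-of-ratios scaling), among them the chaperone BiP, Hspa5 (-0.29), Xbp1 (-0.36) and Herpud1 (-0.78).

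Genes of core energy metabolism had list medians near 0, 0.05 in glycolysis and -0.04 in the respiratory chain. In glycolysis, 11 of 26 tested genes were called higher and 4 lower: Gapdh (2251 ± 74.1 and 2191 ± 53.9 FPKM), Ldha (0.09) and Pgk1 (-0.02) did not pass, and Pdk4, which restrains pyruvate oxidation, rose (1.26). Of 32 nuclear-encoded respiratory chain genes, 4 were called higher and 8 lower, and the lower count was 5 without untreated 1, treated 1 or treated 3, 14 with TPM rescaling and 5 with median-of-ratios scaling, where the higher count was 7. Of 32 cytosolic ribosomal protein genes, 0 were called higher and 4 lower with the values as deposited, and 4 and 3 with median-of-ratios scaling. In the oxygen-sensing list, Epas1, which encodes HIF-2α and is known in cartilage for inducing matrix proteases, rose from 5.71, 5.75 and 5.75 to 26.2, 27.4 and 26.8 FPKM, and Hif1a was at 301 ± 10.8 and 343 ± 9.20. Of 28 tested genes of cholesterol synthesis and oxysterols, 10 were called higher and 9 lower, or 4 lower with median-of-ratios scaling. Ch25h, a hydroxylase that makes oxysterols, rose by 1.07 and Cyp7b1 by 0.74, while the synthesis enzyme Fdft1 (0.01) did not pass.

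Contractile genes rose in 17 of 24 tested members. Acta2, smooth muscle actin, went from 580.3, 575 and 569 to 1244, 1369 and 1292 FPKM, Tagln, transgelin, from 199.7, 199.5 and 206 to 577, 634 and 548, and Cnn1, calponin, from 20.8 ± 1.65 to 66.3 ± 5.73. The groups did not overlap in these genes. Zyx (-0.62), a focal adhesion protein, fell. Of the clock genes, Nr1d1 (8.05 ± 0.748 to 19.3 ± 0.287 FPKM) and Dbp (1.01) rose and Npas2 fell (-1.24), and Clock did not pass (-0.08).

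**Figure D4:**
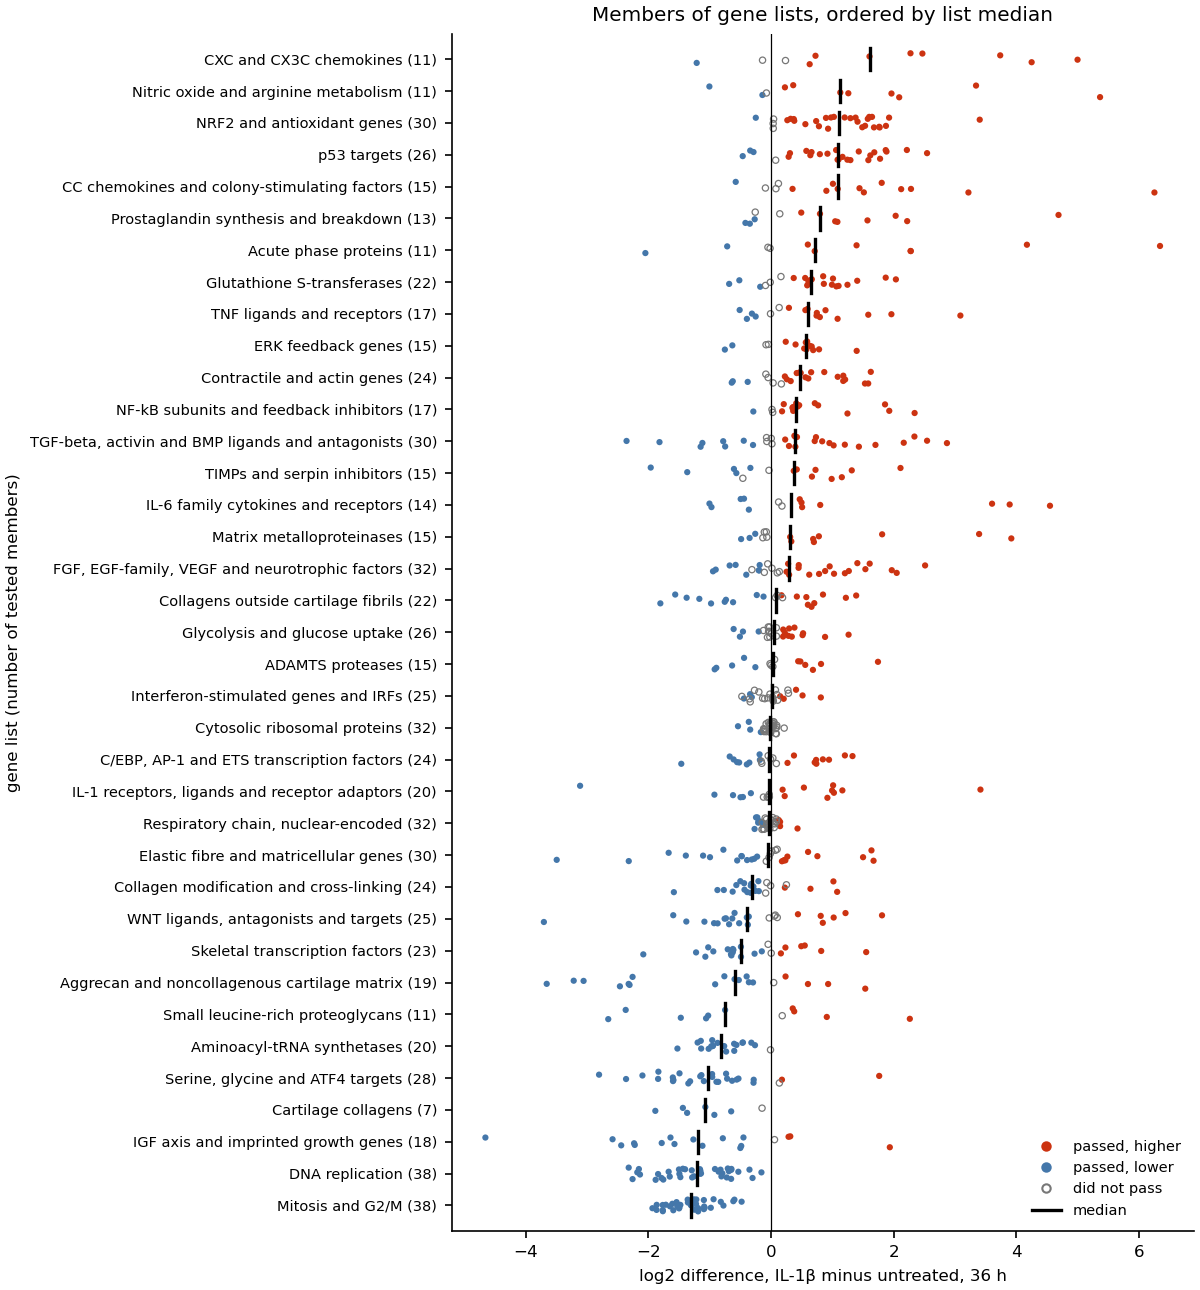
Log2 difference of each tested member (points) of 37 gene lists, with a vertical bar at the median of the list. Filled points passed an adjusted p of 0.05, and open points did not. The replication and mitosis lists lie below 0 in every member, the NRF2 and p53 lists lie mostly above 0, and the ribosomal and respiratory chain lists lie close to 0.

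Some of the largest changes fell outside the lists. Il13ra2, the decoy receptor for IL-13, rose from 0.850, 0.650 and 0.650 to 17.3, 16.8 and 21.5 FPKM, and Procr, the protein C receptor, from 13.96, 13.99 and 14.3 to 152, 157 and 153. Msmp, a small secreted protein, had the largest fall by the naming rule, from 51.7, 45.6 and 42.7 to 0, 0.360 and 0.650 FPKM, and Penk, proenkephalin, fell from 377, 316 and 308 to 48.3, 41.8 and 48.9. Ecrg4, a secreted peptide precursor, went from 146, 131 and 124 to 10.6, 8.11 and 8.62, and Ptn, pleiotrophin, a growth factor of fetal cartilage, from 375, 389 and 359.8 to 50.4, 56.7 and 54.4. Chl1, an adhesion molecule of neurons (-3.38), and Sned1, a matrix protein (-3.28), fell too.

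The response at 36 h was next set against the response at 72 h, which has its own untreated and treated libraries. The log2 effect at 72 h differed from that at 36 h in 45.4% of tested genes, being more positive at 72 h in 23.7% and more negative in 21.6%, by the difference of the differences in limma. Lcn2, Mmp3, Mmp13 and Saa3, all higher at 36 h, had the largest positive differences among the genes eligible to be named. At 72 h Saa3 stood at 4.62 ± 2.35 FPKM without and 7439 ± 887 with IL-1β, an effect of 10.45 against 6.34 at 36 h (difference 4.11 ± 0.26 SE, adjusted p = 4.64e-11). The effect on Lcn2 was 9.32 against 4.17 (difference 5.15, adjusted p = 1.64e-15), on Mmp3 8.67 against 3.92 (difference 4.75) and on Il6 7.03 against 3.89 (difference 3.14). Mmp13 showed the contrast most plainly. Its untreated level was 310.3 ± 16.2 FPKM at 36 h and 10.3 ± 1.34 at 72 h, its treated level 536 ± 66.6 and 348 ± 96.7, so that the effect of 0.78 at 36 h lay 4.14 ± 0.20 below that at 72 h (adjusted p = 5.14e-13). Steap4 fell at 36 h (-0.71) and rose at 72 h (3.02).

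Other effects were larger at 36 h or turned by 72 h. Nqo1 had an effect of 3.40 at 36 h and 1.24 at 72 h (difference -2.16, adjusted p = 1.93e-16), and Ass1 3.34 and 1.198 (difference -2.14). The effects on Gsta4 were 2.04 and -0.64 (difference -2.68), and those on Igfbp3 -2.22 and 0.47 (difference 2.69). In the NRF2 list, 15 of 30 members had a significantly more negative effect at 72 h and 4 a more positive one. In the mitosis list, 32 of 38 had a more positive effect at 72 h, that is a smaller fall, with list medians of -1.30 at 36 h and -0.72 at 72 h. In the serine and ATF4 list the effect was more positive at 72 h in 23 of 28, with medians of -1.03 and -0.19. Penk had an effect of -2.82 at 36 h and 0.14 at 72 h (difference 2.96). Glycolysis genes had a more positive effect at 72 h in 21 of 26 members (medians 0.05 and 0.86), and the oxygen-sensing list in 19 of 24 (medians 0.00 and 1.16). The skeletal muscle markers moved too, with 10 of 13 more positive at 72 h, and their part in these differences was not tested. Lif did not differ between the times by this test (difference 0.10 ± 0.13, adjusted p = 0.542), nor did Mest (0.37 ± 0.20, adjusted p = 0.138), except without treated 3 of the 72 h group (0.51, adjusted p = 0.036).

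In co-culture with dermal fibroblasts at the same time, the effect of IL-1β differed from that in normal culture in fewer genes, 6.96% of those tested, being more positive in co-culture in 4.73% and more negative in 2.23%. A fall in normal culture that was smaller in co-culture was seen in 24 of 38 replication genes and 34 of 38 mitosis genes, with 0 in the other direction in either list. The mitosis list had a median of -1.30 in normal culture and -0.66 in co-culture. Birc5, survivin, for example, was at 30.6 ± 2.89 FPKM without and 7.78 ± 1.75 with IL-1β in normal culture and at 27.4 ± 1.46 and 14.7 ± 1.29 in co-culture (difference of effects 1.01 ± 0.20 SE, adjusted p = 0.00255). The means of the treated libraries thus differed more between the cultures than those of the untreated ones. In the serine and ATF4 list, 13 of 28 also had a more positive effect in co-culture.

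Some induced genes had a larger effect in normal culture, where their untreated mean was lower. Ptgs2 was at 20.5 ± 1.31 FPKM in untreated normal culture and 95.7 ± 1.57 in untreated co-culture, and at 554 ± 53.1 and 515 ± 19.7 with IL-1β. The effects were 4.68 and 2.42 (difference -2.27 ± 0.23, adjusted p = 3.59e-06). Lif went the same way (2.82 ± 0.257 against 11.1 ± 0.529 FPKM untreated, 88.1 ± 4.28 against 108 ± 2.80 treated, difference -1.38, adjusted p = 1.07e-06), and so did Nos2 (difference -1.21, adjusted p = 7.69e-05) and Inhba (-0.94). Sfrp2 fell further in normal culture, from 276 ± 9.91 to 20.3 ± 1.23 FPKM, than in co-culture, from 109 ± 1.19 to 18.7 ± 0.544 (difference 1.22, adjusted p = 1.09e-05). Saa3 (difference 0.71 ± 0.26, adjusted p = 0.108), Lcn2 (0.04 ± 0.17, adjusted p = 0.912), Mmp13 (0.09 ± 0.20, adjusted p = 0.847) and Acan (-0.29 ± 0.18, adjusted p = 0.371) did not pass the test of a difference between the cultures.

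**Figure D5:**
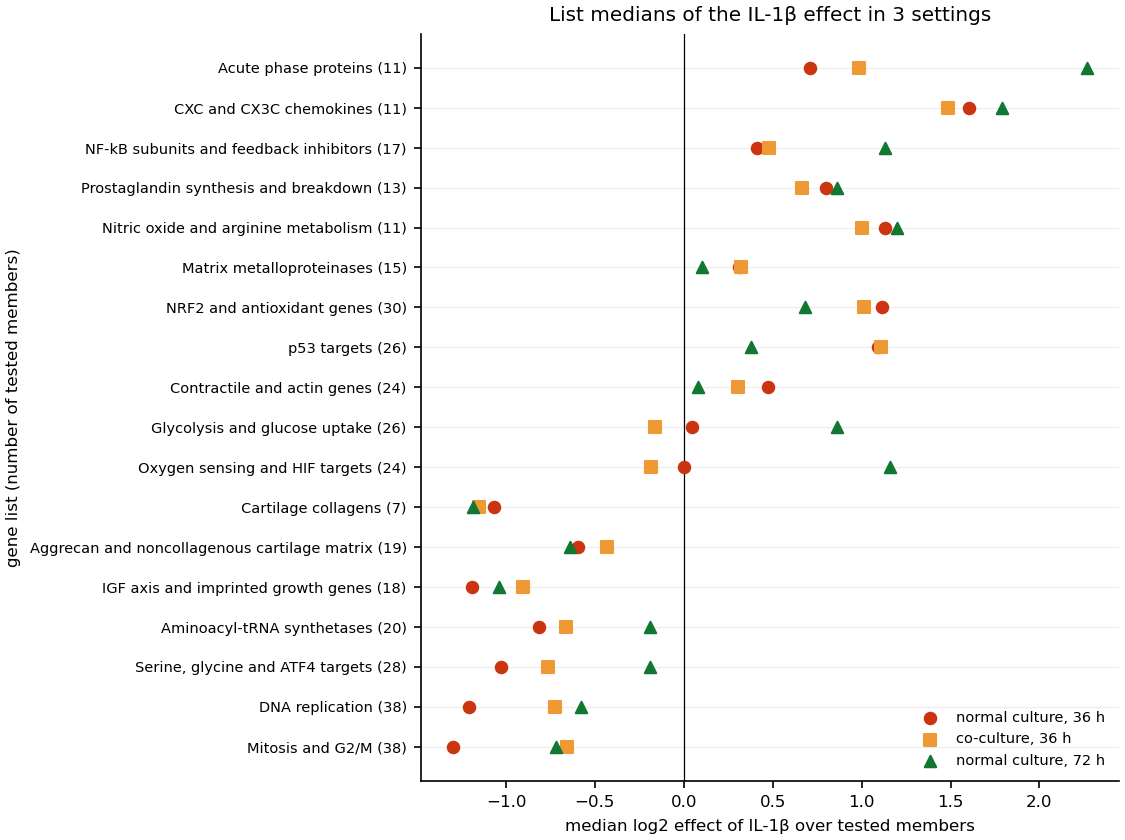
Median log2 effect of IL-1β over the tested members of 18 gene lists in normal culture at 36 h (circles), co-culture at 36 h (squares) and normal culture at 72 h (triangles), each against its own untreated libraries. The replication and mitosis medians are lowest at 36 h in normal culture, and the acute phase median is highest at 72 h.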

How the data were processed

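Libraries were made from mRNA captured by oligo(dT), per the labels' protocols, and the authors deposited FPKM values, to 2 decimals, for 17094 genes on build GRCm38, per the submitters' processing notes. The aligner, the counting tool and the annotation are not named in any label or header (not given in the sources used here). Depth is unknown, since the deposited values are FPKM and not reads. In a check of low values across the libraries, 13.1% of 122 values in 24 genes came within 0.05 of a multiple of the gene's lowest value, against 10% by chance. That check cannot decide whether the values are whole reads, because libraries of unlike depth have unlike steps. No label says that replicates came from separate animals or cultures, so p-values measure the spread between libraries, which may be technical.

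Of these genes, 12178 reached 1 FPKM in 3 or more of the 24 libraries. The deposited values were converted to log2(FPKM + 1), and limma 3.58.1 (R 4.3.3, trended prior) estimated a mean for each of 8 groups, so that all groups shared the estimate of spread. For each comparison the p-values of all 12178 genes were adjusted by Benjamini-Hochberg, and 0.05 was the limit for a call. Differences of the IL-1β effect between times or cultures were contrasts of 4 group means. The procedure was tested on simulated data. With 3 libraries against 3, an exact permutation test of a single gene cannot go below 0.1.

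The 63 gene lists hold 1301 genes, of which 1268 had values and 1125 were tested. The lists and the genes named were chosen with earlier results of these data known. Names were taken from 15 core genes, up to 5 members of each list in each direction and up to 3 abundant members that did not pass, all members of lists of at most 10 genes, the 20 largest changes per direction without overlap between libraries and with 5 FPKM or more in the higher group, and the 12 largest per direction in each difference test. A further 68 genes were named after their values had been seen. A few genes are not reported here. Promoter sequences are RefSeq's on GRCm38.p6 and covered 9757 tested genes. Alternatives were another pseudocount, filter or scaling, the 6 libraries alone, a replicate block, and leaving out each library. Figures were drawn with matplotlib 3.10.9.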

Additional observations from a re-analysis of the deposited data

Results flagged for a closer look

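The effect of IL-1β differed between 36 h and 72 h in normal culture by limma's test of the difference itself. It was more positive at 72 h in 2891 genes and more negative in 2636. Only genes eligible to be named were ranked here. On the scale of log2(FPKM + 1), their largest positive differences were those of Lcn2 (5.15), Mmp3 (4.75), Mmp13 (4.14), Saa3 (4.11) and Steap4 (3.73). Their largest negative differences were those of Klk10 (-2.72), Gsta4 (-2.68), Perp (-2.40), Ano3 (-2.29) and Ltc4s (-2.18). Klk10 was at 0.693 FPKM without and 0.473 with IL-1β at 36 h, a change that was not called, and had an effect of -2.92 at 72 h.

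Between the cultures at 36 h the same test found a more positive effect in co-culture for 576 genes and a more negative one for 271. Among the genes eligible to be named, Sfrp2 (1.22), Gins1 (1.16), Igfbp3 (1.14), Msmp (1.08) and Birc5 (1.01) had the largest positive differences. Ptgs2 (-2.27), Lif (-1.38), Tnfrsf9 (-1.33), Nos2 (-1.21) and Egln3 (-1.11) had the largest negative ones among the same genes. The difference of Msmp (adjusted p = 0.016) was not called with a pseudocount of 0.1 (0.656), with TPM rescaling (0.186), without treated 1 of normal culture (0.0588) or without treated 1 of co-culture (0.0558). Groups of 3 libraries were not tested for single outlying samples.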

How the results depend on the processing

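With a pseudocount of 0.1, 693 genes were called at least 2-fold higher and 734 lower, against 461 and 478 with a pseudocount of 1. The other alternatives kept each count of called genes over the whole table within 1.5 times its value. Of the called genes 38.5% were higher as deposited, 31.5% after TPM rescaling (2631 higher, 5715 lower) and 47.6% after median-of-ratios scaling (3831 and 4212). Leaving out 1 of the 6 libraries gave 2946 to 3039 genes higher, 4744 to 4861 lower, 454 to 477 at least 2-fold higher and 465 to 486 at least 2-fold lower. For the difference between times the counts ran from 2605 to 3364 and from 2371 to 2964, both highest without treated 1 of the 72 h group. For the difference between cultures they ran from 421 to 515 and from 197 to 255.

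Over all tested genes, same-numbered untreated and treated libraries deviated from their group means with correlations of -0.09, 0.02 and 0.13. Taken over all genes, these values cannot show whether single genes varied with the replicate number. With the replicate number as a block, 3161 genes were higher and 5058 lower over all libraries, and 3276 and 5180 within the 6. The block gave 2923 and 2640 for the difference between times and 595 and 283 for that between cultures. Among the named genes it changed the calls of Isg15 (adjusted p = 0.0312 over all libraries, 5.98e-05 within the 6) and Osmr (0.0468 within the 6), and it took the interferon-stimulated genes called lower from 3 to 6 within the 6.

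Of 318 named genes, 0 reversed in 14 alternative settings and 11 changed their call in at least 1. Col10a1, E2f1, Hif1a, Plau, Sox5 and Stc2 lost it, and Isg15, Ldha, Mmp14, Osmr and Ptx3 gained one. Col10a1 lost it without untreated 2 (adjusted p = 0.0971) or treated 3 (0.0892), Hif1a without untreated 1 (0.0942), treated 1 (0.051) or treated 3 (0.0782), and Sox5 without treated 1 (0.0622) or treated 3 (0.11). With TPM rescaling, Hif1a (0.222), Plau (0.0937), Sox5 (0.109) and Stc2 (0.197) lost it. With median-of-ratios scaling, genes called lower went from 9 to 4 in the cholesterol list and from 6 to 3 in the list of HIF targets. At a filter of 5 FPKM, fewer genes were tested, and the lower counts went from 7 to 4 for complement, from 6 to 3 for cartilage collagens and from 5 to 2 for myeloid markers. With no filter the lower ADAMTS genes went from 5 to 10. For the other changes the cause was not tested. Depth is unknown, so the counting error of low values is too.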

Other observations

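Integrins and other adhesion molecules, not described above, were called higher in 13 of 21 tested genes and lower in 5 (3 of 14 at a filter of 5 FPKM), beside 25.9% and 41.5% of all tested genes. Icam1, a ligand for leukocyte integrins, stood at 16.5, 15.5 and 16.4 FPKM in untreated and 39.0, 37.2 and 36.0 in treated libraries (1.16 ± 0.13, adjusted p = 3.55e-08 by limma). The hyaluronan receptor Cd44 went from 52.97, 55.3 and 54.8 FPKM without to 115, 117 and 127 with IL-1β. In both genes every treated library lay above every untreated one. Itga10, a collagen receptor chain typical of chondrocytes, fell from 2.05, 2.23 and 2.27 to 0.850, 0.800 and 0.610 FPKM.

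Of the HOX genes, transcription factors that mark position along the body, 16 of 30 were tested, 3 were called higher and 6 lower, and the median log2 difference was -0.03. The proteasome list had 2 of 31 subunits higher and 15 lower, with a median of -0.15, and 5 higher with median-of-ratios scaling.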
